A study of Homo sapiens with 3 samples.

Results

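The 49 genes described here encode lysosomal enzymes and membrane proteins, the proton pump that acidifies the lysosome, the machinery of autophagy, and TFEB and TFE3. Each was taken as the row of the deposited tables whose gene name matched the symbol, which gave 49 rows of 50868. The cells were NCI-H23, an established human line that the labels describe as lung tumor cells. USP16 was knocked down by siRNA in 2 libraries, called knockdown libraries 1 and 2 here, and 1 library is labelled control (NC); what the control cells received is not stated further. USP16 encodes a deubiquitinase that takes ubiquitin off histone H2A, and the design asks which transcripts differ when it is knocked down. Nothing in the labels says whether the knockdown libraries are separate cultures or carry separate siRNAs, so every spread given here may be technical.

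Lysosomes degrade proteins, lipids and sugar chains with hydrolases that work at acid pH. A rotary pump, the V-ATPase, supplies the protons: its V1 part in the cytosol hydrolyses ATP and its V0 part in the membrane carries protons across. Autophagy brings cytoplasm to the lysosome inside a double membrane that is built by the ATG proteins and decorated with proteins of the ATG8 family. TFEB and TFE3 are related transcription factors that bind an E-box element, named CLEAR, near many of these genes and raise their transcription when nutrients are scarce.

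The libraries held between 13956382 and 15071179 counts. USP16 itself had 109 and 245 counts in knockdown libraries 1 and 2 and 632 counts in the control library, so its level scaled to library size (CPM, counts scaled to a common library total) was 83.8% and 66.8% lower than in the control. Both knockdown libraries lay below the control. The 5 epithelial markers summed to 237 and 361 CPM in knockdown libraries 1 and 2 and 403 CPM in the control. They did not move together: EPCAM had 161 and 232 counts in the knockdown libraries and 38 in the control, whereas CDH1 had 39 and 93 counts in the knockdown libraries and 142 in the control. KRT8, KRT18 and KRT19 were also lower in both knockdown libraries by CPM, so EPCAM alone was higher. KRT18 was close to the control in knockdown library 2 (216 CPM, beside 218 in the control). Of the 4 lung lineage markers, SFTPB and SFTPC had 0 counts throughout, and the list summed to 1.69 and 1.22 CPM in the knockdown libraries and 1.95 CPM in the control. The 3 leukocyte markers summed to 18.2 and 12.2 CPM in the knockdown libraries and 12.7 CPM in the control, from CD68 and CD14, with PTPRC at no more than 1 count. The 4 fibroblast markers, mostly COL1A1, summed to 65.6 and 50.1 CPM in the knockdown libraries and 72.5 CPM in the control. Of the 2 endothelial markers, PECAM1 had at most 1 count and CDH5 had 0 and 8 counts in knockdown libraries 1 and 2 and 0 in the control. The part of these differences in the results below was not tested.

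All 49 genes were expressed, with 91 to 24511 counts in the control library, and all 49 entered the test. None passed an adjusted p of 0.05 in edgeR's quasi-likelihood test, where 0.0174% of the 17287 genes tested did. DESeq2 called none of the 49 either, where it called 0.0796% of the 16335 genes it gave an adjusted p. At an unadjusted p under 0.05 edgeR gave 1 of the 49, SQSTM1, against 4.88% of all genes tested, and DESeq2 gave 0. The only spread the fit could measure was that between the knockdown libraries (1 residual degree of freedom), and an exact permutation test of 2 libraries against 1 could not go below p = 0.333. USP16, the gene knocked down, did not pass an adjusted p of 0.05 in edgeR as reported either, though it did in another setting tried. That none of the 49 passed therefore says little about them, and the values below are descriptions of these libraries.

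Changes are differences in log2 CPM from the control, 1 for each knockdown library, and both use the same control. Relative to the control, 11 of the 49 genes (22.4%) were higher in both knockdown libraries, where 33.4% of all genes tested were. Another 19 (38.8%) were lower in both, where 33.5% of all genes tested were. Among the 11236 genes averaging 100 counts or more, called well-counted genes below and closer in abundance to the 49, the shares were 29.7% higher and 36.6% lower. None of the 49 was at least 2-fold higher in both, beside 3.75% of all genes tested, and none was at least 2-fold lower in both, beside 1.68%. Among well-counted genes those shares were 1.36% and 1.02%, so a count of 0 in 49 is near the background. In single libraries, knockdown library 1 had 0 of the 49 at least 2-fold higher (7.05% of all genes tested, 3.1% of well-counted genes) and 4 at least 2-fold lower, ATP6V0D1, ATG5, GABARAP and SQSTM1 (5.55% and 3.74%). Knockdown library 2 had 1 at least 2-fold higher, GABARAPL1 (9.94% of all genes tested, 4.36% of well-counted genes), and 3 at least 2-fold lower, CTSB, GUSB and ATG12 (8.97% and 7.69%).

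The median log2 change of the 49 was -0.08 in knockdown library 1 and -0.06 in knockdown library 2, and the median of the mean of both changes was -0.18. That last value was -0.02 over all genes tested and -0.06 over well-counted genes. By library, the median of well-counted genes was -0.03 in knockdown library 1 and -0.06 in knockdown library 2. Over all genes tested it was 0.002 and -0.003. In knockdown library 2 the median of the 49 thus equalled that of well-counted genes to 2 decimals, and in knockdown library 1 it was slightly lower. The mean changes ran from -0.93 for SQSTM1 to 0.66 for WIPI2. The exact 95% counting interval of the ratio to the control left out equality for 34 of the 49 genes in knockdown library 1 and 39 in knockdown library 2, and between the knockdown libraries themselves for 40. Below, "beyond counting error" refers to this interval, which does not cover the spread between cultures. In a bulk library, fewer cells carrying a transcript and less of it in each cell cannot be told apart.

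**Figure D1:**
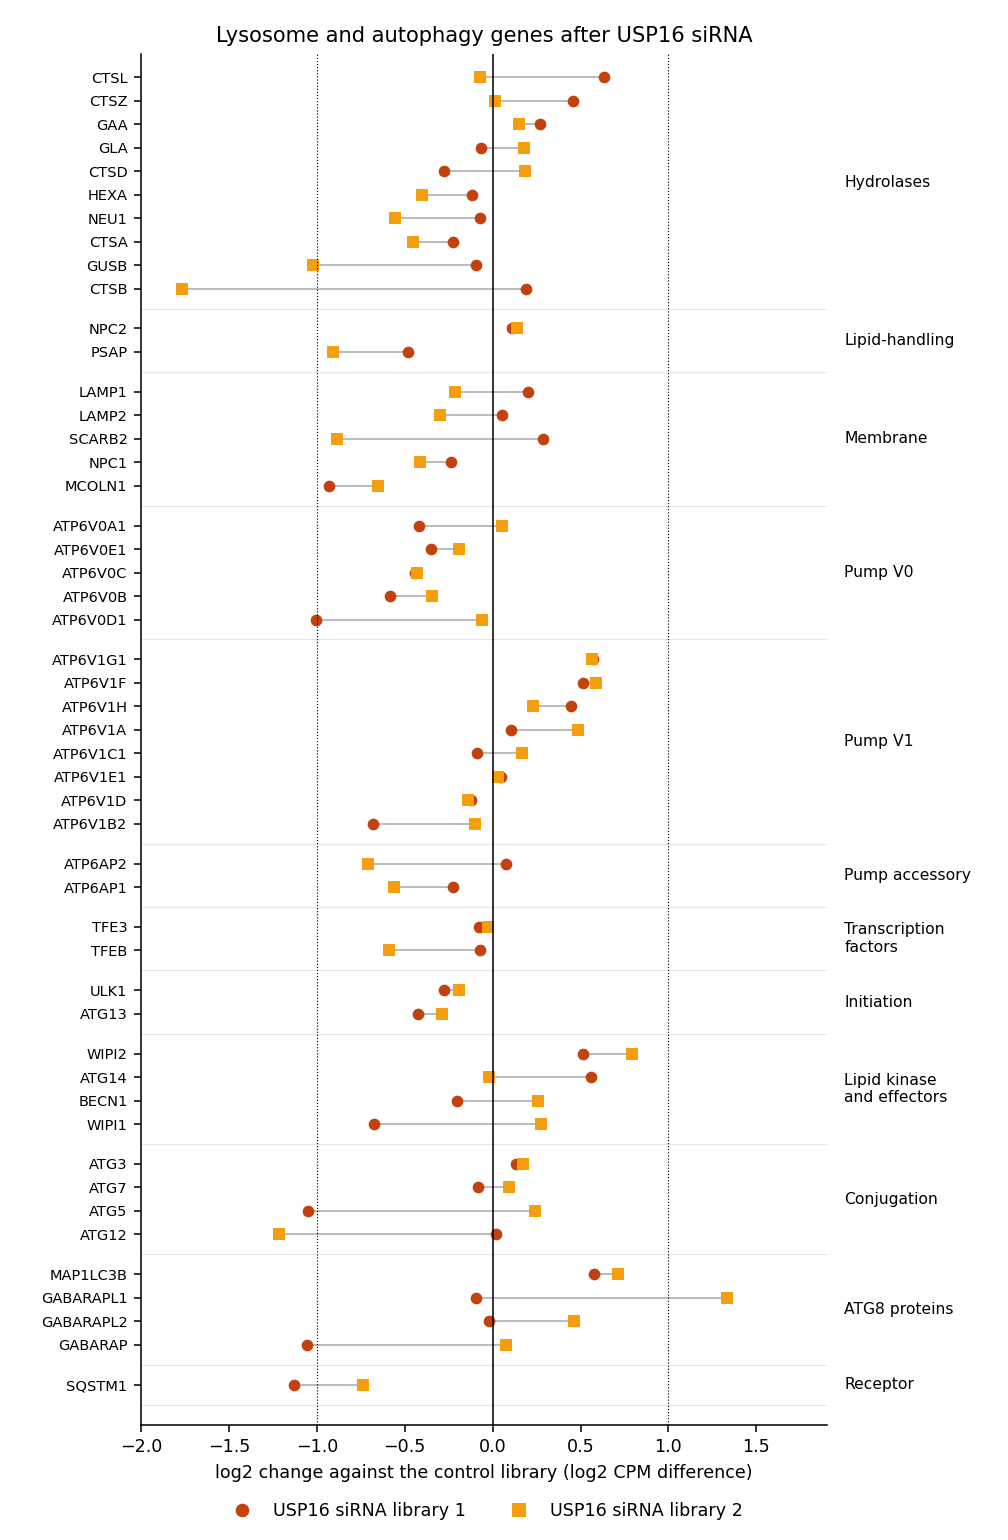
Log2 change of each of the 49 genes against the control library, in knockdown library 1 (circles) and knockdown library 2 (squares), grouped by role, with dotted lines at 2-fold. No gene has both symbols beyond a dotted line on the same side, and the pairs lie farthest apart for CTSB, GABARAPL1 and ATG5.

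**Figure D2:**
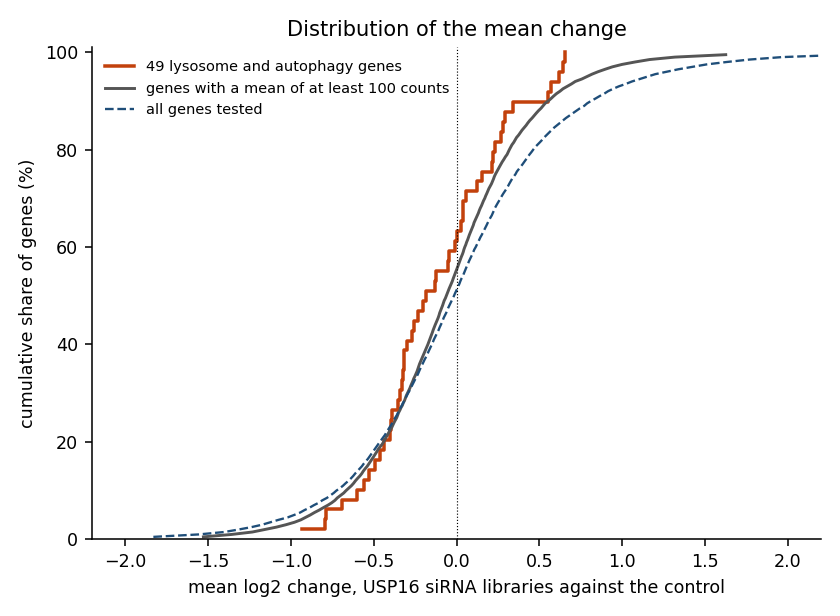
Cumulative share of genes by mean log2 change for the 49 genes, for well-counted genes and for all genes tested. The line of the 49 genes ends at 0.66, where the lines of the larger sets go on, and its median of -0.18 lies left of theirs.

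To compare genes with each other, CPM was divided by the length of a gene's merged exons. PSAP, the precursor of the saposins that help enzymes reach lipids, stood highest at 408 and 303 CPM per kilobase in knockdown libraries 1 and 2 and 568 in the control. TFEB stood lowest of the 49, at 1.15 and 0.797 CPM per kilobase in the knockdown libraries and 1.21 in the control. In the control library SQSTM1 came after PSAP at 171 CPM per kilobase, and the cathepsins CTSZ (129) and CTSL (125) came next, close to each other. The median of the 49 in the control was the 16.8 CPM per kilobase of the pump gene ATP6V1A. PSAP and SQSTM1 together took 26.0% and 25.4% of the counts of the 49 genes in knockdown libraries 1 and 2 and 36.8% in the control. All 49 genes together took 0.750% and 0.718% of the counts of knockdown libraries 1 and 2 and 0.814% of those of the control. That lower share of the raw counts came from PSAP and SQSTM1. The rest of the 49 together took a slightly larger share of the raw counts in each knockdown library than in the control. By CPM, which also uses the scaling factors, the rest lay slightly above the control in knockdown library 1 and below it in knockdown library 2.

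**Figure D3:**
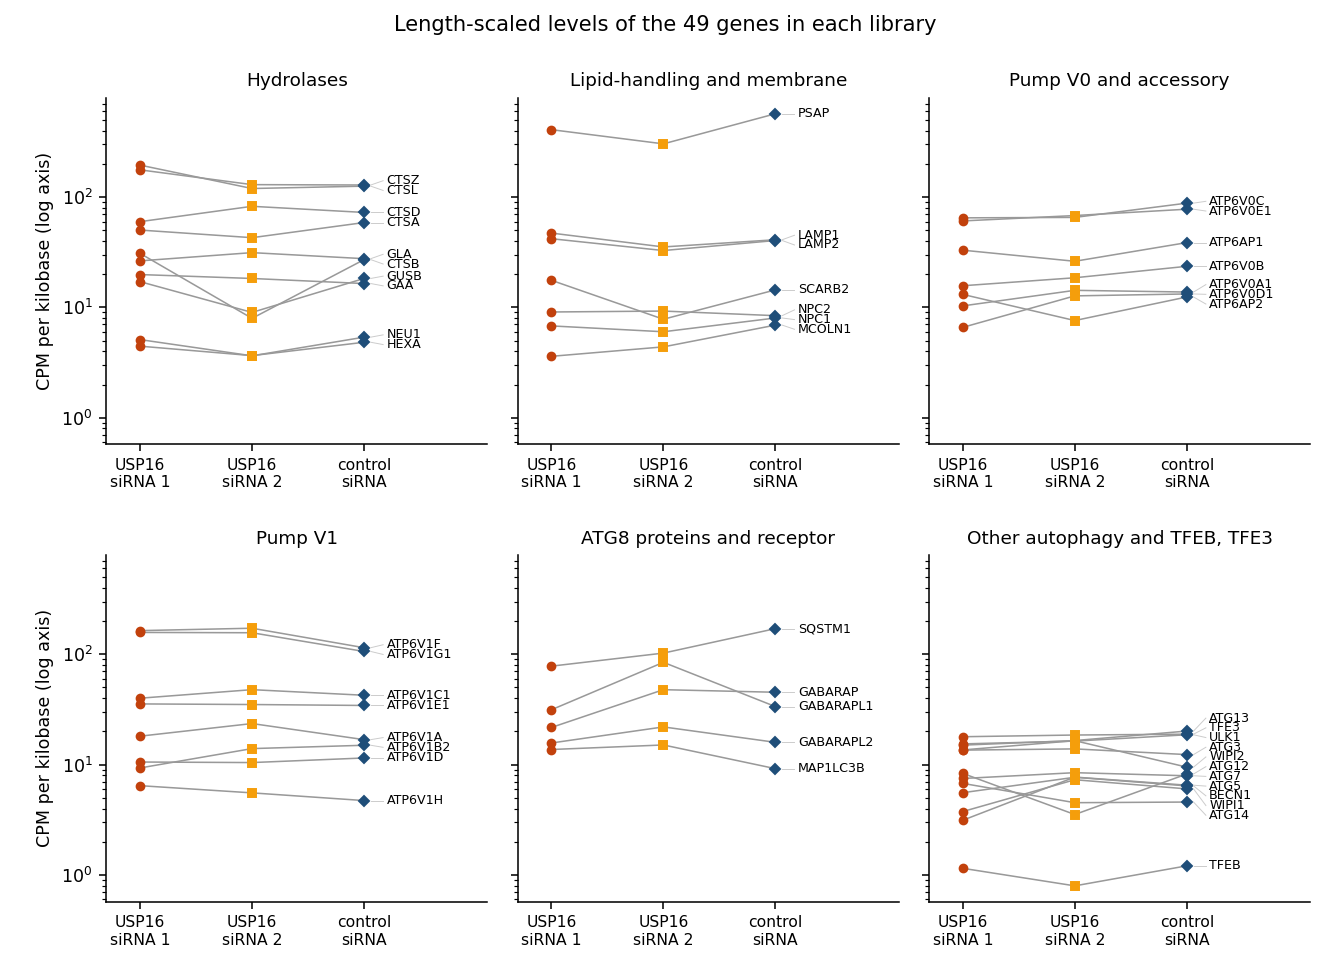
CPM per kilobase of merged exons of the 49 genes (log axis) in knockdown libraries 1 and 2 and the control library, 1 line per gene, by role. PSAP is highest and TFEB lowest in every library, and most lines are nearly flat beside the range between genes.

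The hydrolases were mixed. Of 10, 2 (20%) were higher in both knockdown libraries (CTSZ and GAA), beside 33.4% of all genes tested. Another 4 (40%) were lower in both (CTSA, GUSB, HEXA and NEU1), beside 33.5%. The median change of the 10 was -0.07 in knockdown library 1 and -0.24 in knockdown library 2, and -0.15 for the mean of both. CTSL, a cysteine protease, had the highest mean change: it had 6527 and 4395 counts in knockdown libraries 1 and 2 and 3952 in the control, or log2 changes of 0.63 and -0.07. Knockdown library 1 stood above the control and knockdown library 2 slightly below it, both beyond counting error. CTSB, a related cysteine protease, had the lowest mean change, with 3250 and 919 counts in knockdown libraries 1 and 2 and 2679 in the control. Its changes were 0.19 and -1.77 (mean -0.79 ± 1.38, SD, n = 2), so the 2 knockdown libraries lay on either side of the control and the mean describes neither. GUSB, the beta-glucuronidase that cuts sugar chains, also had its low value in knockdown library 2, with 559 counts against 968 in knockdown library 1 and 972 in the control.

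The other hydrolases lay between -0.56 and 0.46 on the log2 scale in each library. CTSD, the aspartic protease, had changes of -0.28 and 0.18, and CTSZ, an exopeptidase, 0.46 and 0.01. GAA, which breaks down glycogen, had 1450 and 1466 counts in the knockdown libraries and 1129 in the control (0.27 and 0.15). GLA, the alpha-galactosidase, was at -0.07 and 0.18, and HEXA, the alpha subunit of beta-hexosaminidase, at -0.12 and -0.40. The sialidase NEU1 was at -0.07 and -0.56, and CTSA, the protease that protects it in a complex, at -0.23 and -0.46. GUSB has pseudogenes with counts of their own, of which GUSBP1 had 219 and 212 counts in the knockdown libraries and 171 in the control, so its reads may be divided.

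Of the soluble proteins that handle lipids, PSAP was lower in both knockdown libraries and NPC2 was close to the control. PSAP spans positions 71816298 to 71851375 of chromosome 10 (hg38, minus strand). It had 18720 and 15277 counts in knockdown libraries 1 and 2 and 24511 in the control, or log2 changes of -0.48 and -0.91 (mean -0.69 ± 0.30, SD, n = 2). Both libraries lay below the control beyond counting error, but edgeR gave an unadjusted p of 0.0725 and an adjusted p of 0.999. NPC2, which hands cholesterol to NPC1, had 354 and 396 counts in the knockdown libraries and 308 in the control (0.11 and 0.14), and the 95% counting interval of each ratio held equality.

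None of the 5 membrane proteins was higher in both knockdown libraries, beside 33.4% of all genes tested. MCOLN1 and NPC1 (40%) were lower in both, beside 33.5%. MCOLN1, the calcium channel of the lysosomal membrane, had 202 and 270 counts in the knockdown libraries and 364 in the control, which are log2 changes of -0.93 and -0.65 (mean -0.79 ± 0.20, SD, n = 2, edgeR unadjusted p = 0.112). NPC1, which exports cholesterol, was nearer to the control at -0.24 and -0.41. LAMP1 and LAMP2, the abundant glycoproteins that line the membrane, lay on either side of the control. LAMP1 had 3835 and 3150 counts in the knockdown libraries and 3134 in the control (0.20 and -0.22), and LAMP2 had changes of 0.05 and -0.30. SCARB2, the receptor that carries glucocerebrosidase to the lysosome, had 4826 and 2349 counts in knockdown libraries 1 and 2 and 3712 in the control (0.29 and -0.88). The group's median change was accordingly 0.05 in knockdown library 1 and -0.41 in knockdown library 2.

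Among the 15 proton pump genes, the membrane and the cytosolic part differed in where they lay. Of the 5 V0 genes, 4 (80%) were lower in both knockdown libraries, beside 33.5% of all genes tested and 36.6% of well-counted genes. Of these V0 genes 0 were higher in both, and their median mean change was -0.44. Of the 8 V1 genes, 5 (62.5%) were higher in both, beside 33.4% of all genes tested and 29.7% of well-counted genes. Another 2 (25%) were lower in both, and the V1 median mean change was 0.17. These counts use the sign of the change alone. ATP6V0D1 and ATP6V1A were within counting error of the control in a single knockdown library, and ATP6V1D and ATP6V1E1 in both. No pump gene passed the test, even at an unadjusted p under 0.05, and the difference between the V0 and V1 genes was not tested.

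In V0, ATP6V0D1, a subunit that links the ring to the V1 stalk, had the lowest mean change. Its 767 and 1624 counts in knockdown libraries 1 and 2 stood beside 1447 in the control, so its CPM was 50.2% and 3.93% lower than in the control and the low value came from knockdown library 1. ATP6V0A1, which holds the proton channel with the ring, had the highest mean change of the 5, at -0.42 and 0.05. ATP6V0C, the main subunit of the ring, had 1375 and 1523 counts in the knockdown libraries and 1756 in the control, with changes of -0.44 and -0.43. It overlaps by 862 exon bases an annotation on the same strand, RP11-20I23.1, which had 298 and 483 counts in the knockdown libraries and 431 in the control. ATP6V0B, another ring subunit, was at -0.58 and -0.34, and ATP6V0E1 at -0.35 and -0.19.

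In V1, ATP6V1G1 and ATP6V1F, small subunits of the stalks, had the highest mean changes. ATP6V1G1, on chromosome 9 at positions 114587746 to 114598373 on the plus strand, had 2916 and 3179 counts in the knockdown libraries and 1841 in the control. Its changes were 0.57 and 0.56 (mean 0.57 ± 0.01, SD, n = 2, edgeR unadjusted p = 0.184). ATP6V1F had 1831 and 2112 counts in the knockdown libraries and 1204 in the control (0.51 and 0.59). For both genes the knockdown libraries lay close together and above the control. ATP6V1B2, which forms the ATP-hydrolysing head with ATP6V1A, had the lowest mean change, with 1033 and 1698 counts in knockdown libraries 1 and 2 and 1558 in the control (-0.68 and -0.10).

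ATP6V1A, the catalytic subunit, was at 0.10 and 0.48, so the partners of the head did not lie on the same side of the control. ATP6V1H, a regulatory subunit, was at 0.45 and 0.23, and ATP6V1C1, which joins the stalks to V0, at -0.09 and 0.17. ATP6V1E1 (0.05 and 0.03) and ATP6V1D (-0.12 and -0.14) were within counting error of the control in both libraries. The accessory protein ATP6AP1 had 2284 and 1988 counts in the knockdown libraries and 2513 in the control (-0.23 and -0.56). ATP6AP2, the other accessory protein, was at 0.08 and -0.71.

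A ratio of 2 sums within a library does not depend on the scaling between libraries, and it was computed after the values of the subunits had been seen. The counts of the 8 V1 genes divided by those of the 5 V0 genes gave 2.21 in knockdown library 1 (exact binomial 95% interval 2.15 to 2.28) and 1.94 in knockdown library 2 (1.89 to 1.99). The control library gave 1.44 (1.40 to 1.48). The intervals of the knockdown libraries did not reach that of the control, but they did not reach each other either, and they cover counting error only. The V1 sum was 926 and 1035 CPM in knockdown libraries 1 and 2 and 864 CPM in the control. Without ATP6V1G1 and ATP6V1F, the V1 sum in CPM lay below the control in knockdown library 1 and above it in knockdown library 2. The ratio without these genes was smaller in every library and still higher in the knockdown libraries. The V0 sum was 418 and 535 CPM in the knockdown libraries and 601 CPM in the control.

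**Figure D4:**
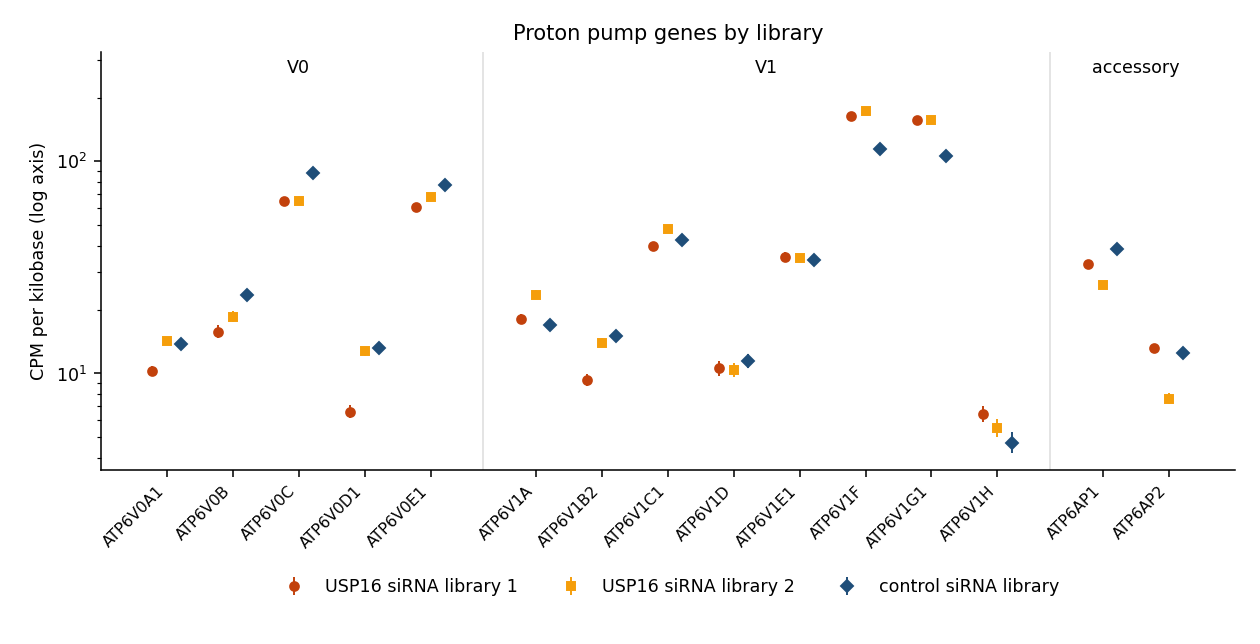
CPM per kilobase of merged exons (log axis) of the 15 proton pump genes in knockdown libraries 1 and 2 and the control library, with bars for the 95% exact Poisson interval. ATP6V0B, ATP6V0C, ATP6V0D1 and ATP6V0E1 have both knockdown points below the control, as do ATP6V1B2, ATP6V1D and ATP6AP1. ATP6V1A, ATP6V1E1, ATP6V1F, ATP6V1G1 and ATP6V1H have both above it.

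Of the transcription factors of the pathway, TFE3 was close to the control in both knockdown libraries. TFEB was thinly counted, and it lay below the control beyond counting error in knockdown library 2 only. TFE3, on chromosome X at positions 49028726 to 49043486 on the minus strand, had 1086 and 1235 counts in the knockdown libraries and 1076 in the control. Its changes of -0.08 and -0.03 (mean -0.05 ± 0.04, SD, n = 2) were both within counting error. TFEB, on chromosome 6 at positions 41683978 to 41736259 on the minus strand, had 92 and 70 counts in knockdown libraries 1 and 2 and 91 in the control (-0.07 and -0.59). For knockdown library 1 the 95% interval of the log2 ratio ran from -0.51 to 0.36, so a difference of that size was not detectable at this depth, and for knockdown library 2 it ran from -1.07 to -0.14.

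Since TFEB and TFE3 bind an E-box element, the promoters were searched for the 8-letter core of the CLEAR element, TCACGTGA, and for the E-box CACGTG that lies within it. Each reads the same on both strands, so every core match is an E-box match too. The windows ran from 250 bases before to 50 bases after the start of each gene in RefSeq (build GRCh38.p14), and 40 of the 49 genes had one. PSAP, LAMP2, CTSB, HEXA, ATP6V0E1, ATP6V1A, ATP6V1B2, ATP6V1C1 and ATP6V1H had no window and were not searched. The core was in 7 of the 40 windows (17.5%), beside 0.98% of all 35116 promoters of the table and 1.27% of those of protein-coding genes. The E-box was in 11 of the 40 (27.5%), beside 7.26% of all promoters. CLEAR is an element described near many of these genes, so the higher share among them is not independent support for anything. A single window was kept per member, whereas the comparison used every window of the table. A match is a description of the letters, and binding was not measured.

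The 7 genes with a core match are shown because they come from 4 of the roles and include the highest pump gene and the lowest membrane gene by mean change. Each sequence is 40 bases of the strand of its gene, read 5′ to 3′, with the first core match in capitals:
ATP6V1G1: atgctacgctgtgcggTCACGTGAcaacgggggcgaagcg
ATP6V0D1: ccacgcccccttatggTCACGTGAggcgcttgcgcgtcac
MCOLN1: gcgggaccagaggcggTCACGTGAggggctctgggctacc
LAMP1: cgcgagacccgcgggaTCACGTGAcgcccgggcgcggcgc
GAA: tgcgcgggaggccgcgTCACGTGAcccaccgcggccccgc
CTSA: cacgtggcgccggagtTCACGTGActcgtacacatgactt
ATG3: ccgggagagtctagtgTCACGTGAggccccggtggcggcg

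In GRCh38.p14 these lie at chr9:114587694-114587733 (plus strand) for ATP6V1G1, chr16:67481194-67481233 (minus) for ATP6V0D1, chr19:7522566-7522605 (plus) for MCOLN1 and chr13:113297194-113297233 (plus) for LAMP1. Those of GAA, CTSA and ATG3 lie at chr17:80101488-80101527 (plus), chr20:45891293-45891332 (plus) and chr3:112561935-112561974 (minus). The core began at -59 from the start site in ATP6V1G1, at -60 in ATP6V0D1 and at -42 in MCOLN1, and GAA, LAMP1 and MCOLN1 held 2 copies in the window. These 7 genes did not lie on the same side of the control. ATP6V1G1, GAA and ATG3 were higher in both knockdown libraries, ATP6V0D1, MCOLN1 and CTSA were lower in both, and LAMP1 lay on either side. The windows of SQSTM1, TFEB and TFE3 held neither motif.

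Of the 15 autophagy genes, 3 (20%) were higher in both knockdown libraries (WIPI2, ATG3 and MAP1LC3B), beside 33.4% of all genes tested. Another 3 (20%) were lower in both (SQSTM1, ULK1 and ATG13), beside 33.5%. The median change of the 15 was -0.10 in knockdown library 1 and 0.17 in knockdown library 2. ULK1, the kinase that starts autophagy, and ATG13, its binding partner, were the initiation genes measured. ULK1 had 1661 and 1932 counts in the knockdown libraries and 1888 in the control, with changes of -0.27 and -0.19. ATG13 was at -0.42 and -0.29, and both genes thus lay slightly below the control in each library.

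The lipid kinase step that marks the forming membrane showed its highest value in WIPI2. WIPI2, which reads the lipid and recruits the conjugation machinery, had 1728 and 2301 counts in the knockdown libraries and 1134 in the control. Its changes were 0.52 and 0.80 (mean 0.66 ± 0.20, SD, n = 2, edgeR unadjusted p = 0.142), both above the control beyond counting error. Its relative WIPI1 had 181 and 386 counts in knockdown libraries 1 and 2 and 273 in the control (-0.68 and 0.27), on either side of the control. ATG14 and BECN1, subunits of the kinase complex, were at 0.56 and -0.02 and at -0.20 and 0.26.

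The conjugation enzymes attach ATG8 proteins to lipid. ATG3, the enzyme that makes the final transfer, had 1172 and 1319 counts in the knockdown libraries and 1003 in the control (0.13 and 0.17), and ATG7, which activates the ATG8 proteins, was at -0.08 and 0.09. ATG12 and ATG5, whose products are joined to each other, each had a single low library, and not the same library. ATG12 had 1049 and 488 counts in knockdown libraries 1 and 2 and 973 in the control (0.02 and -1.22). ATG5 had 251 and 678 counts in knockdown libraries 1 and 2 and 490 in the control (-1.05 and 0.24). ATG12 overlaps AP3S1 by 378 exon bases on the opposite strand, and AP3S1 had 1369 and 1882 counts in the knockdown libraries and 894 in the control.

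The ATG8 proteins coat the membrane and hold cargo receptors. MAP1LC3B, the LC3 protein that is the usual marker of autophagosomes, had 1032 and 1245 counts in the knockdown libraries and 650 in the control. Both knockdown libraries lay above the control, by 0.58 and 0.71 (mean 0.64 ± 0.10, SD, n = 2, edgeR unadjusted p = 0.160). The 3 GABARAP genes depended on the library. GABARAP had 697 and 1683 counts in knockdown libraries 1 and 2 and 1365 in the control (-1.06 and 0.08), so knockdown library 1 was low. GABARAPL1, on chromosome 12 at positions 10212458 to 10223130 on the plus strand, had 1818 and 5370 counts in knockdown libraries 1 and 2 and 1825 in the control (-0.10 and 1.33). It was the only gene of the 49 to be at least 2-fold higher than the control in either library. GABARAP overlaps by 691 exon bases an annotation on the same strand, CTD-2545G14.7, which had 46 and 92 counts in the knockdown libraries and 45 in the control. GABARAPL2 was at -0.02 and 0.46. The 4 genes summed to 298 and 600 CPM in knockdown libraries 1 and 2 and 337 CPM in the control, so only knockdown library 2 was above the control in the sum.

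SQSTM1 encodes p62, the receptor that ties ubiquitinated cargo to ATG8 proteins and is itself degraded by autophagy. It lies on chromosome 5 at positions 179806398 to 179838078 on the plus strand and was, after PSAP, the most counted of the 49. It had 8463 and 12195 counts in knockdown libraries 1 and 2 and 17395 in the control, which is 597 and 784 CPM in the knockdown libraries and 1307 CPM in the control. Both knockdown libraries lay below the control, by log2 changes of -1.13 and -0.74 (mean -0.93 ± 0.28, SD, n = 2). The unadjusted p was 0.0227 and the adjusted p 0.999 in edgeR, and over the alternatives that carry a test, DESeq2 included, the adjusted p lay between 0.557 and 1.000. SQSTM1 overlaps C5orf45 and MGAT4B on the opposite strand, which had 534 and 672 counts and 1521 and 947 counts in the knockdown libraries and 553 and 1878 in the control.

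The knockdown libraries can also be set against each other, which leaves the control out. This comparison was chosen after the values had been seen, and as each is a single library it has no test. In 6 of the 49 genes (12.2%) they were at least 2-fold apart, where 15.7% of all genes tested and 10.4% of well-counted genes were. CTSB, SCARB2 and ATG12 were lower in knockdown library 2 than in library 1 (8.02% of all genes tested were, by at least 2-fold), with log2 differences of -1.95, -1.17 and -1.23. GABARAPL1, ATG5 and GABARAP were higher in knockdown library 2 than in library 1 (7.71% were), by 1.43, 1.29 and 1.14. USP16 was higher in library 2 than in library 1 by 1.02. The median absolute difference between the knockdown libraries was 0.36 over the 49 genes, 0.36 over well-counted genes and 0.42 over all genes tested.

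A further 97 genes of the same pathways that are not among the 49 were listed, and 94 of them entered the test. None passed an adjusted p of 0.05 in edgeR, and 7 (7.45%) had an unadjusted p under 0.05, where 4.88% of all genes tested did. Of the 94, 18 (19.1%) were higher than the control in both knockdown libraries, beside 33.4% of all genes tested and 29.7% of well-counted genes. Another 47 (50%) were lower in both, beside 33.5% and 36.6%. The lists were chosen with earlier results of these data known, so these shares are not independent support for anything. Lower in both were 24 of the 44 lysosome genes (54.5%), 6 of the 8 pump isoforms (75%), 10 of the 16 regulators (62.5%) and 7 of the 26 autophagy genes (26.9%). Higher in both were 9, 2, 1 and 6 genes of these lists. The median change in knockdown libraries 1 and 2 was -0.24 and -0.37 for the lysosome genes, -0.59 and -0.26 for the pump isoforms and -0.17 and -0.24 for the regulators. For the autophagy genes it was -0.14 and 0.07, on either side of the control.

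GALC, which breaks down galactosylceramide, had the lowest mean change among those that averaged 100 counts or more. It had 185 and 191 counts in the knockdown libraries and 490 in the control, with changes of -1.49 and -1.57 (mean -1.53 ± 0.06, SD, n = 2, edgeR unadjusted p = 0.00461, adjusted p = 0.818). HGSNAT, an acetyltransferase of heparan sulfate breakdown, had 449 and 450 counts in the knockdown libraries and 1066 in the control (-1.33 and -1.46). Both genes were more than 2-fold lower in each knockdown library, as were 4 of the 94 in all (4.26%, beside 1.68% of all genes tested). The other such genes are named here after their values were seen: CTSS, a cysteine protease, had 27 and 59 counts in knockdown libraries 1 and 2 and 170 in the control (-2.66 and -1.71, edgeR unadjusted p = 0.00309, adjusted p = 0.757). ATP6V1B1, a pump isoform, had 12 and 11 counts in the knockdown libraries and 37 in the control. FUCA1, a fucosidase, and SORT1, a sorting receptor, likewise named after their values were seen, were at -0.77 and -1.29 and at -0.97 and -1.12 and complete, with ARSB, the 7 genes with an unadjusted p under 0.05. ARSB, a sulfatase, was at -1.29 and -0.90, while LAPTM4A, a lysosomal membrane protein, was at -0.41 and -2.57 with its low value in knockdown library 2. The highest were the pump isoform ATP6V1E2 (0.58 and 1.35), the hydrolase AGA (0.79 and 1.01), the Ragulator subunit LAMTOR4 (0.79 and 0.95) and the thioesterase PPT1 (1.28 and 0.34).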

How the data were processed

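Total RNA was extracted with TRIzol and made into libraries with an mRNA-seq kit, per the labels' protocols. The authors deposited raw whole-number read counts for 50868 genes in each of 3 libraries. HISAT2 2.0.4, StringTie 1.3.0 and build hg38 are named in the submitters' processing notes, without roles. How reads were counted, and whether by strand, is not given in the sources used here, so reads of overlapping genes and near-identical copies cannot be told apart. Gene identifiers were matched to GENCODE release 29 (50111, 98.51%) for positions and merged exon lengths. Counts were filtered with filterByExpr, scaled by trimmed means of M-values (factors 1.02 and 1.03 in the knockdown libraries and 0.952 in the control) and tested by the quasi-likelihood method of edgeR 4.0.16 (R 4.3.3), and p-values were adjusted by Benjamini-Hochberg over 17287 genes. The lone control is taken to have the spread of the knockdown libraries. Log2 CPM used a prior count of 2, and the SD of both changes leaves out the spread of the shared control. The second knockdown sample has the number 6 in its column header and was used as labelled. The chi-square statistic between the knockdown libraries was 62.5 per degree of freedom, so they were kept as separate samples. It was 43.4 between knockdown library 1 and the control and 67.7 between knockdown library 2 and the control. By this statistic knockdown library 1 was nearer to the control than to knockdown library 2. Intervals are 95% exact Poisson for levels and exact binomial for ratios. They cover counting error only, and reads are not independent molecules. A simulation with large built-in changes checked the 2-fold rule and the log2 changes. It set no condition on the calls of the test, and its spread was preset and not taken from these libraries. Named are USP16, TFEB and TFE3, members with an unadjusted p under 0.05, the members with the highest and lowest mean change of each subgroup and, of the further genes that averaged 100 counts or more, the 4 highest and 4 lowest, while the other members were added so that all are accounted for. Members and lists were chosen with earlier results of these data known. Alternatives were other filters, scalings and pseudocounts, DESeq2 1.42.0 and each knockdown library left out.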

Additional observations from a re-analysis of the deposited data

How the results depend on the processing

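The count of members called was 0 in edgeR under each filter and scaling and in DESeq2. Over all genes, edgeR called 3 genes in the comparison as reported, 70 when no gene was filtered out and 1 with a minimum mean of 100 counts, and DESeq2 called 13. Without either knockdown library no test was left. Members at least 2-fold higher ranged from 0 to 1 and those at least 2-fold lower from 3 to 4 when only the remaining library had to pass. Likewise 19 to 22 members were higher and 27 to 30 lower than the control. The median change of the members was -0.15 on the log2(CPM + 5) scale and -0.12 with a minimum mean of 100 counts, and ranged from -0.082 to -0.058 with a knockdown library left out. On the same omission the median ranged from -0.41 to 0.054 for membrane proteins, from -0.24 to -0.07 for hydrolases, from -0.38 to -0.18 for lipid-handling proteins, from -0.31 to -0.07 for the transcription factors, from -0.10 to 0.17 for autophagy genes and from -0.12 to -0.058 for the pump. That of the transcription factors was -0.011 with a minimum mean of 100 counts, which removes TFEB. LAMP1 changed sign in DESeq2 and with that minimum, and ATG7 with no filter, both from values near 0. The V0 median was -0.19 without knockdown library 1 and the V1 median 0.08 without knockdown library 2, a comparison added after seeing the data. No paired analysis was possible because the single control library carries no replicate number. Depth limits TFEB most.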
